A study of Mus musculus with 32 samples.

Results

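Thrombomodulin (*Thbd*), tissue plasminogen activator (*Plat*), follistatin (*Fst*), the parathyroid hormone receptor (*Pth1r*), the retinol transporter *Stra6*, serglycin (*Srgn*), tissue factor (*F3*) and the endothelial protein C receptor (*Procr*) were followed as transcripts during *Gata6*-driven differentiation of mouse ES (mES) cells. These 8 genes, grouped under the name parietal endoderm genes, were chosen by symbol from a table of 54233 rows, and each symbol matched 1 row. The table covered 32 bulk RNA-seq samples, with 4 replicates for each of the 8 times 0, 2, 4, 8, 16, 24, 48 and 96 h. All samples came from KH2 mES cells (strain label C57BL/6), a single line with 1 copy of a transgene in which a bidirectional TET-responsive element drives GATA6-FLAG and DsRed2. Cells at 0 h had no doxycycline (Dox) and were kept in 2i medium with PD0325901, a MEK inhibitor, and a GSK3 inhibitor of the CHIR series. Cells at 2, 4 and 8 h were in serum medium with Dox at 1 µg/ml. Cells at 16, 24, 48 and 96 h had Dox for 12 h in serum medium and then serum medium without it. LIF was present in both media. The change of medium and the addition of Dox therefore cannot be told apart in any comparison with 0 h.

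Parietal endoderm is the migratory derivative of primitive endoderm (PrE) that lines the inside of the mural trophectoderm and lays down Reichert's membrane, a thick basement membrane of laminin and type IV collagen. Its sister derivative, visceral endoderm, surrounds the epiblast and takes up and carries nutrients. Thrombomodulin and tissue plasminogen activator are classical products of parietal endoderm-like cells in culture, and parathyroid hormone-related peptide acting on *Pth1r* is a known stimulus of parietal endoderm formation. None of the 8 genes is restricted to this cell type. *Thbd*, *Procr*, *Plat* and *F3* are also made in blood vessels or in trophoblast, and *Srgn* is abundant in blood cells.

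Levels are normalized counts, which are reads per gene scaled by the size factor that the authors had applied to each sample. Each sample had between 3190108 and 12301732 reads on genes (median 8870662.5), and intervals given below cover counting error only. The filter asked for 10 or more normalized counts in 4 or more samples, and 15227 of the 54233 rows passed it. All 8 genes passed, but *Thbd* and *Stra6* reached this level at 48 and 96 h only, and *Procr*, *Plat*, *Pth1r* and *Srgn* did so through induced samples, so counts of changed genes against 0 h describe these genes and are no support for a common direction. Changes were tested with limma on log2(normalized count + 1) and called at a false discovery rate (FDR) below 0.1 with a change of 4-fold or more, and every adjusted p below is from that fit. The labels do not say that replicates were separate cultures, so p-values measure the spread between these samples, which may be technical. That spread is pooled over all time points for each gene. Replicates fell into 2 sets. For pairs of samples taken at the same time point, chi-square over its degrees of freedom had a median of 1.59 where both came from replicates 1 and 2 or both from 3 and 4. The median was 11.4 where they came from different sets, and the labels name no batch. Values within each set are therefore given for some changes where they differ. Changes given without them may differ between the sets as well.

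The time course and the tissue label were checked on other genes. No read was assigned to the transgene row at 0 h, whereas its mean was 618 ± 110 normalized counts at 2 h, 504 ± 118 at 8 h and 65.7 ± 14.2 at 16 h, after Dox withdrawal (SD, n = 4). The mean of this row was 50.8 ± 29.9 at 24 h, 81.6 ± 15.2 at 48 h and 115.3 ± 49.8 at 96 h. Endogenous *Gata6* rose from 0.371 ± 0.432 at 0 h to 345.6 ± 22.6 at 8 h and 2068 ± 154 at 96 h, and *Nanog* fell from 5875 ± 1219 to 60.1 ± 19.9. Of 12 parietal endoderm markers, all tested, 11 were higher at 96 h than at 0 h (median log2 fold change 5.46, against -0.03 over all genes tested). Over all genes tested, 9.28% were called higher and 10.3% lower in this comparison, the background of every list count at 96 h below. The parietal endoderm markers that were higher included the basement membrane genes *Col4a1* (11.37), *Col4a2* (11.29), *Lamb1* (7.37) and *Lama1* (6.84). *Vim*, of the same list, changed by -0.51 (adjusted p = 0.031) and was not past the threshold. Of 14 visceral endoderm markers, 9 were tested and all 9 were higher at 96 h (median 5.59), led by *Cubn* (11.76), *Ihh* (8.35), *Amn* (7.83) and *Ttr* (5.74). Of these 9, 7 had a mean below 10 at 0 h and passed the filter through induced samples, so that their direction was largely fixed by it, whereas each of the 12 parietal endoderm markers had a mean of 10 or more at 0 h. *Afp*, at 4.15 ± 2.14 at 96 h, and *Apoa1*, at 1.29 ± 1.34, did not pass the filter. All 8 markers shared by the endoderm derivatives were higher (median 8.29), 5 of them from a mean below 10 at 0 h, and 9 of 10 pluripotency genes were lower (median -5.01). Levels of markers of both derivatives were thus present at 96 h, and in bulk RNA fewer cells of a type cannot be told apart from less RNA per cell. The summed level of the visceral list ranged from 18878 to 42180 at 48 h and from 16480 to 24719 at 96 h. That of the parietal list ranged from 255583.5 to 442108 at 48 h and from 506735 to 661554 at 96 h. These ranges overlapped for the visceral list only.

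Among cell types in which these 8 genes are also known, 4 of 7 tested endothelial markers of a list of 8 were higher at 96 h, *Flt1* (8.59), *Cdh5* (8.37), *Esam* (4.26) and *Kdr* (3.07), and *Vwf* was lower (-2.32, adjusted p = 0.0023). *Cdh5*, *Flt1* and *Esam* had means of 0.17, 2.32 and 7.26 at 0 h and passed the filter through later samples. Their direction was thus largely fixed by it. *Emcn*, an endothelial sialomucin, had no read at 0, 48 or 96 h. The summed level of the endothelial list was 257.5 to 309.5 normalized counts over the samples at 0 h and 2150 to 3002 at 96 h. Of 10 trophoblast markers 5 were tested and 1, *Hand1*, was higher (4.68), while the giant cell hormones *Prl3d1* and *Prl2c2* had no read at these time points. The summed trophoblast level went from a range of 662.5 to 733 at 0 h to one of 188 to 416.5 at 96 h. Of 8 blood markers 5 were tested, of which *Runx1* was higher (4.90) and *Cd34* (-2.96) and *Spi1* (-3.28) lower, with a summed level of 56.6 to 68.0 at 0 h and 424 to 511 at 96 h. *Runx1* alone went from 14.5 ± 2.4 to 459 ± 36, and the sum without it was lower at 96 h (7.53 to 18.9) than at 0 h (40.1 to 54.8). Of 8 markers of mesoderm and definitive endoderm 3 were tested, with *Foxf1* higher (3.67) and *T* lower (-6.90), and a summed level of 94.4 to 454 at 0 h and 22.7 to 34.7 at 96 h. For *Hand1* (mean 0.17 at 0 h) and *Foxf1* (0.774) the direction was likewise largely fixed by the filter. The part of other cell types in the levels of the 8 genes was not tested.

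The stretches upstream of 4 of the genes are shown because *F3* and *Procr* were the first of the 8 to be called higher than at 0 h, and *Srgn* and *Pth1r* rose together from 16 h. Each is the 250 bases before the RefSeq start site nearest to the start of the annotated gene, on GRCm38.p6, read 5′ to 3′ on the strand of the gene. They lie at chr3:121723287-121723536 (plus strand, *F3*), chr2:155750967-155751216 (plus strand, *Procr*), chr10:62527446-62527695 (minus strand, *Srgn*) and chr9:110747146-110747395 (minus strand, *Pth1r*). Capitals mark matches on either strand to 5 motifs. For GATA the forms searched were AGATAA with its variant TGATAA, and AGATAG with its variant TGATAG. The SOX motif was ACAAT, that of AP-1 was TGANTCA with any base at N, the core of the cAMP response element was TGACG, and the TATA box was TATAAA.
F3: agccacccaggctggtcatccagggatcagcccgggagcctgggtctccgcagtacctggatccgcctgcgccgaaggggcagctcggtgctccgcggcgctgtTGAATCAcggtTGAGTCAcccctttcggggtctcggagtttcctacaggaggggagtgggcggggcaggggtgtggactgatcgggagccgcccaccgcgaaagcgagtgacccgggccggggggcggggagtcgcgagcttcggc
Procr: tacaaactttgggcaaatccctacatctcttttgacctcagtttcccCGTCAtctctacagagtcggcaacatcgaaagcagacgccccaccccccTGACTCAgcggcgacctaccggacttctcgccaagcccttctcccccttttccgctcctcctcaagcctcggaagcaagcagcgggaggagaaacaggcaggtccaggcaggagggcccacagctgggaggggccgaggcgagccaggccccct
Srgn: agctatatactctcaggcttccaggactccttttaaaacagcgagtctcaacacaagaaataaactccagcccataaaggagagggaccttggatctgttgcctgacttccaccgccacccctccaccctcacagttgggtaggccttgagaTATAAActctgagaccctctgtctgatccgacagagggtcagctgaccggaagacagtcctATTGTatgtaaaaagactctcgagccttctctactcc
Pth1r: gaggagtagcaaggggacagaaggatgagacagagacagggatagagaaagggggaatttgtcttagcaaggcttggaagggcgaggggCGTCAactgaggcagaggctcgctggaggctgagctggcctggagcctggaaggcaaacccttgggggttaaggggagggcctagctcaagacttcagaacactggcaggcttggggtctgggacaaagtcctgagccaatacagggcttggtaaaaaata
The *F3* stretch held 2 AP-1 matches, which began 146 and 135 bases before the start site. The *Procr* stretch held 1 AP-1 match (154 bases before) and 1 cAMP element core (203 bases before). In *Srgn* a TATA match began 98 bases and a SOX match 37 bases before the start, and *Pth1r* held 1 cAMP element core, 161 bases before. No 2 matches overlapped. RefSeq promoters were matched for 5 of the 8 genes, with 11 start sites in all, and *Thbd*, *Plat* and *Fst* were not among them. A GATA match stood upstream of 1 of the 11 starts, 1 of 4 for *Stra6*. Among all 32851 promoters, the same window held a GATA match in 26.5%, a SOX match in 27.7%, an AP-1 match in 6.75%, a cAMP element core in 17.8% and a TATA match in 12.4%. These matches are descriptions of letters, and binding was not analysed here.

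**Figure D1:**
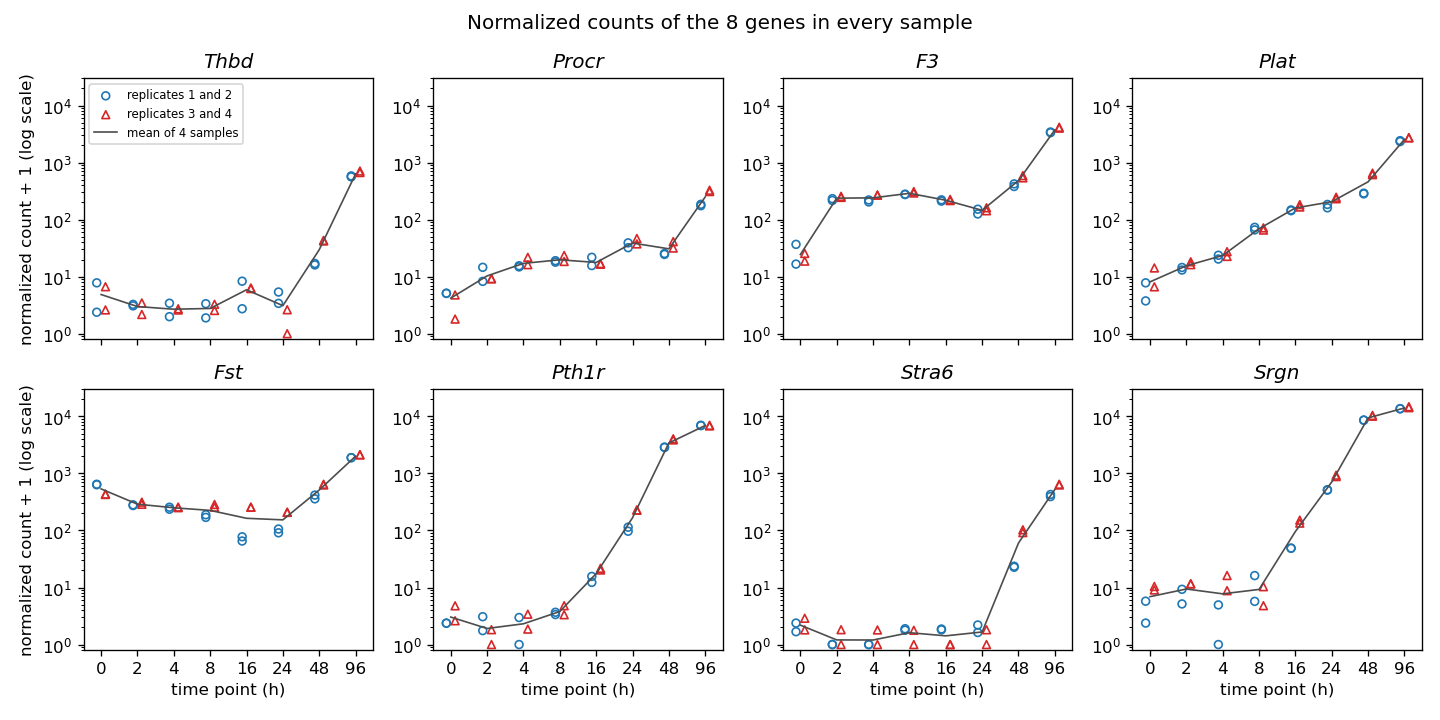
Normalized count plus 1 (log scale) of each of the 8 genes in every sample, against time point (equal spacing, not to scale). Circles are replicates 1 and 2, triangles replicates 3 and 4, and the line joins the means of 4 samples. *F3* stepped up by 2 h, *Plat* climbed from 2 h on, *Srgn* and *Pth1r* rose from 16 h, *Stra6* and *Thbd* from 48 h, and *Fst* was lower at 16 and 24 h than at 0 or 96 h.

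The coagulation and protein C genes entered at different times. Thrombomodulin, the receptor that turns thrombin into an activator of protein C, was the last to appear. *Thbd* (ENSMUSG00000074743, chr2:148404466-148408188, minus strand, GRCm38) had normalized counts of 1.38, 6.79, 1.61 and 5.67 in replicates 1 to 4 at 0 h. Between 2 and 24 h its samples lay between 0 and 7.33, that is 0 to 9 reads, and overlapped those at 0 h in each comparison. At 48 h the counts were 16.0, 15.1, 41.3 and 42.3, which had grown to 584, 562, 712 and 669 by 96 h. All 4 samples at 48 h lay above all 4 at 0 h and below all 4 at 96 h. The log2 fold change was 2.65 ± 0.44 (SE) at 48 h against 0 h (adjusted p = 5e-06), and 4.56 ± 0.44 at 96 h against 48 h (adjusted p = 1.2e-09). With 16 reads in all at 0 h, the pooled level at 96 h was 156 times that at 0 h (95% exact counting interval 95.9 to 273.5), and the fitted log2 value of 7.21 depends on the pseudocount. The call at 48 h was lost with a pseudocount of 5 (log2 fold change 1.86) and in replicates 1 and 2 alone (1.94), where the change from 24 to 48 h was also under 4-fold (1.95).

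*Procr* (ENSMUSG00000027611, chr2:155751117-155755471, plus strand), which presents protein C to thrombomodulin, rose by small steps from the first hours. Its counts were 4.14, 4.08, 0.806 and 3.78 at 0 h, 7.27, 13.6, 8.21 and 8.21 by 2 h, then 13.8, 14.5, 15.2 and 20.8 by 4 h. From 2 h on no sample lay within the range at 0 h. The change against 0 h was 1.38 ± 0.28 at 2 h (adjusted p = 0.0002, under 4-fold), 2.13 ± 0.28 at 4 h (adjusted p = 3.1e-07) and 3.32 ± 0.28 at 24 h (adjusted p = 1.8e-11). The counts of 31.2, 38.2, 36.6 and 45.7 at 24 h overlapped with those of 23.6, 24.5, 30.8 and 40.2 at 48 h (log2 fold change -0.36, adjusted p = 0.29). At 96 h they reached 185, 175, 328 and 310.1, higher than at 48 h by 3.0 ± 0.28 (adjusted p = 4.5e-10). Replicates 3 and 4 stood 1.77 times above replicates 1 and 2 at 96 h, and the change from 0 h was 5.14 within the latter and 6.77 within the former. The calls at 4, 8 and 16 h each fell under 4-fold without replicate 3 at 0 h (1.76, 1.98 and 1.82), a sample with 1 read, with a pseudocount of 5 (1.38, 1.55 and 1.42) and in replicates 1 and 2 alone (1.57, 1.86 and 1.86).

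Tissue factor, the receptor for factor VII that starts the clotting cascade, was the earliest riser. *F3* (ENSMUSG00000028128, chr3:121723537-121735048, plus strand) had counts of 35.9, 15.6, 17.7 and 24.6 at 0 h and of 216, 232.5, 256 and 245 at 2 h. The groups did not overlap, and the rise was 3.35 ± 0.16 on the log2 scale (adjusted p = 1.5e-16). The means were 240.1 ± 33.2 at 4 h and 289 ± 16 at 8 h, followed by 218 ± 7 at 16 h and 145 ± 15 at 24 h (SD, n = 4). At 24 h all 4 samples lay below all 4 at 2 h (-0.71 ± 0.16, adjusted p = 0.00037, under 4-fold). A second rise followed, to 423, 381, 540.1 and 591 at 48 h (1.72 ± 0.16 against 24 h, adjusted p = 4.6e-10, under 4-fold) and to 3355, 3441, 4022 and 4173 at 96 h (2.97 ± 0.16 against 48 h, adjusted p = 7.2e-15). In all, *F3* stood 7.32 ± 0.16 above 0 h at 96 h (adjusted p = 3.9e-26), and the level at 2 h was 6.33% of that at 96 h.

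*Plat* (ENSMUSG00000031538, chr8:22757727-22782844, plus strand), the protease that turns plasminogen into plasmin, had a higher mean at each later time point. Its counts were 2.76, 6.79, 5.64 and 13.2 at 0 h, 65.2, 72.3, 70.8 and 64.6 by 8 h, then 184, 160.2, 231.5 and 246 by 24 h. At 48 h they were 290.2, 283, 614 and 653, before they reached 2428, 2341, 2733 and 2732 at 96 h. From 4 h on its samples no longer overlapped those at 0 h. The change against 0 h was 1.69 ± 0.26 at 4 h (adjusted p = 5.4e-06, under 4-fold), 3.25 ± 0.26 at 8 h (adjusted p = 1.9e-11), 5.88 ± 0.26 at 48 h (adjusted p = 2.9e-18) and 8.46 ± 0.26 at 96 h (adjusted p = 2.7e-22). Without replicate 4 at 0 h, the highest there, the change at 4 h passed 4-fold (2.02). No single step up to 48 h passed 4-fold, and the last step did, 2.58 ± 0.26 from 48 to 96 h (adjusted p = 2.9e-09). Replicates 3 and 4 stood 2.21 times above replicates 1 and 2 at 48 h, but 1.15 times by 96 h.

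Follistatin, which binds activins and keeps them from their receptors, was the one gene of the 8 with a sizeable level before induction. *Fst* (ENSMUSG00000021765, chr13:114452290-114458951, minus strand) had counts of 646, 633, 427 and 434 at 0 h and fell to 280.5, 273, 287 and 313.5 at 2 h (-0.86 ± 0.32, adjusted p = 0.033, under 4-fold), with no overlap. At 16 h the sets parted, with 76.5 and 64.4 in replicates 1 and 2 and 254 and 255.5 in replicates 3 and 4. All 4 lay below all 4 at 0 h (-1.96 ± 0.32, adjusted p = 7.9e-06, just under 4-fold), and the fall was -3.17 within replicates 1 and 2 and -0.75 within replicates 3 and 4. It passed 4-fold without replicate 3 or 4 at 0 h (-2.06 and -2.05) and without replicate 3 or 4 at 16 h (-2.27 each). The level then returned, to 358, 416, 646 and 627.5 at 48 h, which overlapped with 0 h (-0.08 ± 0.32, adjusted p = 0.83), and rose to 1895, 1888, 2116 and 2141 at 96 h. Every sample at 96 h lay above every sample at 0 h (1.93 ± 0.32, adjusted p = 3.4e-06, under 4-fold), and the change passed 4-fold without replicate 1 or 2 at 0 h (2.03 and 2.02). The change from 48 to 96 h was 2.01 ± 0.32 (adjusted p = 5.9e-06), at the edge of the threshold. It fell below 4-fold without replicate 1 or 2 at 48 h (1.86 and 1.93) and without replicate 3 or 4 at 96 h (1.99 and 1.98). The call was also lost with scaling by total reads (1.89) or by the upper quartile (1.91), with limma-voom on the reads (2.00 when rounded) and in replicates 3 and 4 alone (1.74).

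*Pth1r* and *Srgn* rose together and reached the highest levels per length of the 8. *Pth1r* (ENSMUSG00000032492, chr9:110722085-110747145, minus strand), a G protein-coupled receptor for parathyroid hormone and its related peptide, had counts of 1.38, 1.36, 1.61 and 3.78 at 0 h, or 7 reads in all. They were 11.3, 14.7, 19.3 and 20.7 by 16 h, then 96.1, 113, 227 and 227 by 24 h. After that they reached 2900.2, 2857, 4054 and 3875 (48 h), and finally 6899, 7002, 6994 and 6821 (96 h). The groups did not overlap from 16 h on. Successive changes were 2.19 ± 0.34 from 8 to 16 h (adjusted p = 2.2e-05), 3.18 ± 0.34 from 16 to 24 h (adjusted p = 4.4e-08) and 4.45 ± 0.34 from 24 to 48 h (adjusted p = 6.7e-12), and then 1.04 ± 0.34 (adjusted p = 0.012, under 4-fold). The pooled level at 96 h was 3923 times that at 0 h (95% exact counting interval 1904 to 9759). At 16 h the call against 0 h was lost with a pseudocount of 5 (1.6), and that against 8 h with the same pseudocount (1.45) and in replicates 1 and 2 alone (1.98).

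Serglycin, the core protein of secreted and granule proteoglycans, was the most abundant of the 8 at the end. *Srgn* (ENSMUSG00000020077, chr10:62493833-62527451, minus strand) had counts of 1.38, 4.76, 8.06 and 9.44 at 0 h and of 4.71, 15.2, 9.33 and 3.80 at 8 h, which overlapped. It then rose to 47.8, 48.1, 134 and 151 by 16 h and to 509, 517.5, 932 and 881.5 by 24 h. The samples stood at 8619, 8613, 10114 and 10405 by 48 h, then at 13587.5, 13709, 14252 and 14817 by 96 h. The changes were 3.35 ± 0.55 from 8 to 16 h (adjusted p = 5.8e-05), 3.03 ± 0.55 to 24 h (adjusted p = 0.00015) and 3.78 ± 0.55 to 48 h (adjusted p = 1.4e-06), against 0.58 ± 0.55 to 96 h (adjusted p = 0.41). The SE is pooled over all time points, and the SD of the log2 values was 1.73 at 4 h, at low counts, against 0.15 at 48 h and 0.06 at 96 h. The last adjusted p therefore does not measure the spread at 48 and 96 h. All 4 samples at 96 h lay above all 4 at 48 h, and the pooled level was 1.478 times as high (95% exact counting interval 1.458 to 1.498). At 48 h *Srgn* had reached 67.0% and *Pth1r* 49.4% of the mean at 96 h, whereas the means of the other 6 genes were between 4.54% (*Thbd*) and 25.5% (*Fst*) of it. For these other 6, the larger part of the level at 96 h came after 48 h. For *Pth1r* the sets differed, with 41.4% reached at 48 h in replicates 1 and 2 and 57.4% in replicates 3 and 4.

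The annotation bears on *Pth1r*. Its span overlaps *Myl3* on the opposite strand, and whether reads were counted by strand is not given in the sources used here, although the library kit keeps strand. *Myl3* had a mean of 7.71 ± 3.51 normalized counts at 48 h and of 144 ± 22 at 96 h, against 3422 ± 632 and 6929 ± 86 for *Pth1r*. *Stra6* overlaps *Ccdc33* on the opposite strand, which reached 6.45 ± 1.55 at 96 h, and *Fst* overlaps *Gm47040*, which had a mean of at most 0.382.

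*Stra6* (ENSMUSG00000032327, chr9:58063788-58153996, plus strand), the membrane receptor that takes up retinol from its plasma carrier, was at or under the floor of 3 reads in every sample up to 24 h. In these 24 samples it had 0 or 1 read each, so no change between these time points is given. At 48 h its counts were 21.7, 22.6, 102 and 90.8, and by 96 h they were 427, 392, 646 and 627. All 4 samples at 48 h lay above the earlier ones, and replicates 3 and 4 stood 4.36 times above replicates 1 and 2, the widest split between the sets among the 8 genes at 48 h. The pooled level at 48 h was 64.1 times that at 0 h (95% exact counting interval 24.7 to 237), and that at 96 h 517 times (201.5 to 1899). From 48 to 96 h the level rose by 3.43 ± 0.42 (adjusted p = 9.6e-08), with 4.15 in replicates 1 and 2 against 2.71 in replicates 3 and 4.

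**Figure D2:**
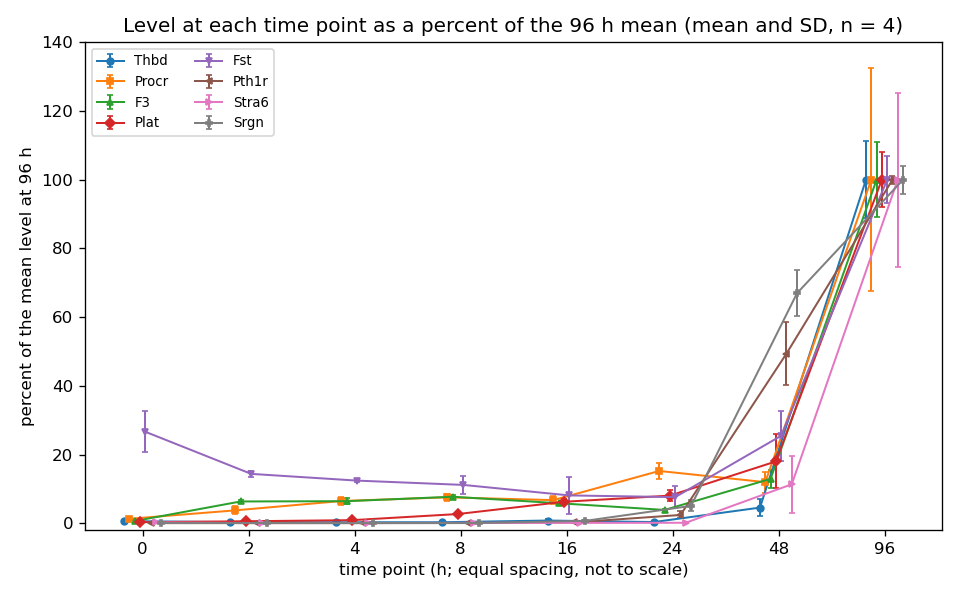
Mean level of each gene at each time point as a percent of its mean at 96 h (error bars, SD of 4 samples as a percent of the same mean), against time point. *Srgn* and *Pth1r* stand apart at 48 h, at 67.0% and 49.4%, and *Fst* is the one that starts high, at 26.6% at 0 h.

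Counted over the 8 genes, those called higher than at 0 h were 1 at 2 h, *F3*, with 2.00% of all genes tested called higher in the same comparison. They were 2 at 4 h with *Procr* added (background 2.69%), 3 at 8 h with *Plat* added (3.40%), 5 at 16 h with *Pth1r* and *Srgn* added (4.03%), and the same 5 at 24 h (4.85%). At 48 h and at 96 h they were 7, all but *Fst* (8.48% and 9.28%). None was called lower at any of these times, and at 16 h, where *Fst* came nearest to it, 2.40% of all genes were called lower. The median log2 fold change of the 8 genes was 0.03 by 2 h and 2.37 by 16 h, then 4.42 by 48 h and 7.61 by 96 h, against medians between -0.03 and 0.01 over all genes tested. Since 6 of the 8 passed the filter through induced samples, nothing is read from these shares beside the background.

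Step by step, most calls fell late, at steps that were also the longest. None of the 8 was called from 2 to 4 h (0.558% of all genes called higher) or from 4 to 8 h (0.565%). At an adjusted p under 0.1 alone, to which these shares do not apply, *Procr* passed from 2 to 4 h and *Plat* from 4 to 8 h. *Pth1r* and *Srgn* were called from 8 to 16 h (0.499%), the interval in which Dox was withdrawn, and again from 16 to 24 h (0.525%). From 24 to 48 h 4 genes were called, *Thbd*, *Pth1r*, *Stra6* and *Srgn* (2.51%). From 48 to 96 h 6 were called, *Thbd*, *Plat*, *Fst*, *Stra6*, *F3* and *Procr* (1.30%), of which *Fst* was lost under several alternatives, as given above. *Thbd* and *Stra6* were the genes called at both of the last steps. Since these genes passed the filter through samples at 48 and 96 h only, the timing of their calls was largely fixed by it. Nothing is read from these counts beside the background.

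**Figure D3:**
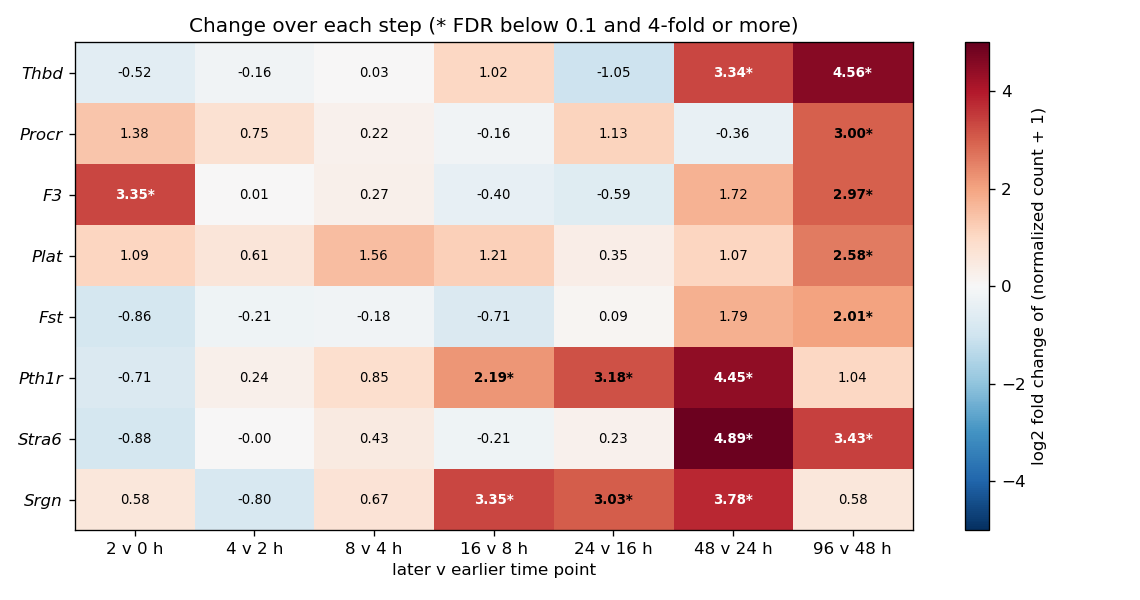
Log2 fold change of (normalized count + 1) of each of the 8 genes over each step between successive time points, red for a rise and blue for a fall, with an asterisk where FDR was below 0.1 and the change 4-fold or more. *F3* has its first marked rise at 2 h, *Pth1r* and *Srgn* have theirs at 16, 24 and 48 h, and the last column holds 6 marked rises.

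Since samples from 2 h on share the serum medium, the later time points were also set against 2 h. Time since the change of medium and time since the addition of Dox still differ together in these comparisons and cannot be told apart. At 24, 48 and 96 h Dox had also been withdrawn. Of the 8 genes 1, *Plat*, was called higher at 8 h (2.17 ± 0.26, adjusted p = 1.2e-07, background 2.07%), and it fell below 4-fold with a pseudocount of 5 (1.91) and in replicates 3 and 4 alone (2.00 when rounded). The 3 genes *Plat*, *Pth1r* and *Srgn* were called at 24 h (background 4.62%) and 5 at 48 h, with *Thbd* and *Stra6* added (8.50%). At 96 h all 8 were called (9.00%), *Fst* by 2.79 ± 0.32 (adjusted p = 4.6e-09) and *F3* by 3.97 ± 0.16 (adjusted p = 1.5e-19). At 8 h *F3* differed from its level at 2 h by 0.28 ± 0.16 (adjusted p = 0.18). *Thbd*, *Stra6*, *Pth1r*, *Srgn* and *Procr* had means below 10 at 2 h (1.99, 0.205, 0.913, 8.42 and 9.32) and passed the filter through later samples. Their rise against 2 h was thus largely fixed by it, and nothing is read from these counts beside the background.

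The 2 sets of replicates differed in these genes most clearly at 48 h. There replicates 3 and 4 both lay above replicates 1 and 2 for 8 of the 8 genes, and the same order held for 32.9% of all genes tested, with the opposite order for 29.1%. The ratio of the set means was 4.36 for *Stra6*, 2.69 for *Thbd*, 2.21 for *Plat*, 1.64 for *Fst*, 1.48 for *Procr*, 1.41 for *F3*, 1.38 for *Pth1r* and 1.19 for *Srgn*. At 96 h the order held for 7 of the 8, all but *Pth1r* (ratio 0.994), against 26.3% of all genes tested, with ratios of 1.06 to 1.77. At 0 h it held for 2 genes and the opposite order for 2, against 31.98% and 28.76% of all genes tested. Other lists showed it at 48 h as well, 10 of 12 parietal and 7 of 9 tested visceral endoderm markers, while 6 of 10 pluripotency genes had the opposite order. What set the replicates apart was not tested, and no p is given for this split since the sets were found in these data.

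**Figure D4:**
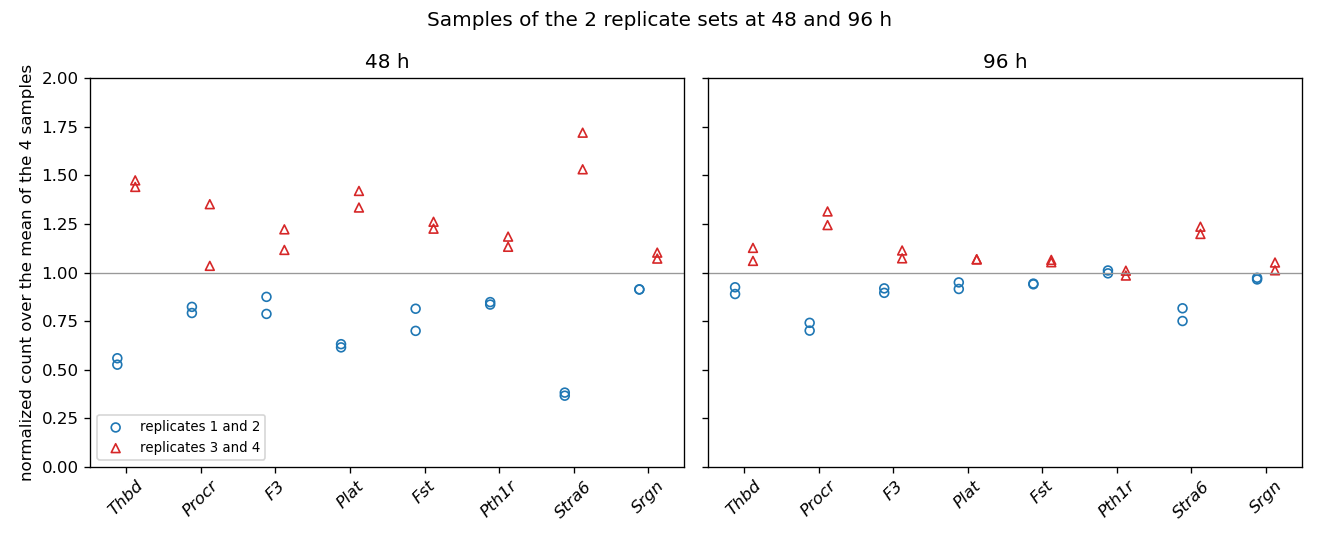
Normalized count of each sample at 48 h (left) and 96 h (right) divided by the mean of the 4 samples of that time point, for each of the 8 genes. Circles are replicates 1 and 2 and triangles replicates 3 and 4. At 48 h every triangle lies above every circle of its gene, furthest for *Stra6*, and at 96 h the sets lie closer together for 7 of the genes and overlap for *Pth1r*, while for *Procr* they lie further apart (ratio 1.77, against 1.48 at 48 h).

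Levels of different genes were set side by side per kilobase of annotated exon. At 0 h *Fst* stood first with 117 ± 26 normalized counts per kb, above *F3* with 9.28 ± 3.61, and the other 6 genes had means between 0.204 (*Stra6*) and 2.69 (*Srgn*). At 96 h the order was *Srgn* (6417 ± 257 per kb), *Pth1r* (2369 ± 29), *F3* (1483 ± 162), *Fst* (438 ± 30), *Plat* (409.9 ± 32.6), *Thbd* (170 ± 19), *Procr* (123 ± 40) and *Stra6* (89.7 ± 22.7). The first 3 were separated from each other and from the rest in every sample. The samples of *Fst* and *Plat* overlapped in range, as did those of *Thbd* and *Procr* and of *Procr* and *Stra6*. Within each of the 4 samples, which hold both genes of a pair, the order was nevertheless the same. *Fst* stood 1.05 to 1.10 times above *Plat*, *Thbd* 1.18 to 1.75 times above *Procr*, and *Procr* 1.24 to 1.46 times above *Stra6*.

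The profiles most like each gene were ranked by the root mean square difference between the 8 time point means of log2(normalized count + 1), each centred on its own mean, among 9956 genes with a symbol and a mean of at least 100 at some time point. *Thbd* was nearest to *Myl3* (0.43), *Frzb* (0.46) and *Irf4* (0.57), all near 0 until 24 h. *Fst* had the closest matches, *Inka2* (0.21), *Lif* (0.31) and *Igfbp4* (0.36). *F3* was nearest to *Tinagl1* (0.38), *Procr* to *Tax1bp3* (0.42), *Stra6* to *Ppp1r16b* (0.46) and *Plat* to *Adgra2* (0.48). *Pth1r* and *Srgn* were nearer to each other (0.53) than either was to any other gene, with *Habp2* (0.71) next for *Pth1r* and *Nxf7* (0.73) for *Srgn*. These are likenesses of 8 means and carry no test.

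Other genes of the same pathways were taken from lists of known members, for 96 h against 0 h. Of 17 coagulation and protein C genes 7 were tested, and 5 of these were higher (median of the 7, 3.54). They were *Tfpi* (4.82 ± 0.13), the inhibitor of the tissue factor complex, *F2* (3.94 ± 0.38), which encodes prothrombin, *Gas6* (3.59 ± 0.28), the thrombin receptor *F2r* (3.54 ± 0.17), and *Pros1* (2.97 ± 0.24), the cofactor of activated protein C. *Proc* itself, protein C, was at 2.44 ± 1.15 normalized counts at 96 h and did not pass the filter, nor did *F7* (0.265 ± 0.531). Of 11 plasminogen activation genes 8 were tested, 4 higher and 2 lower (median 2.07). *Anxa2* (7.71 ± 0.14) and *S100a10* (3.19 ± 0.20), which together dock plasminogen and its activator at the cell surface, the urokinase receptor *Plaur* (5.93 ± 0.24) and the inhibitor *Serpine2* (4.52 ± 0.19) were higher, and the clearance receptor *Lrp1* (-2.31 ± 0.22) and *Serpini1* (-2.06 ± 0.20) lower. *Plg*, plasminogen, was at 1.53 ± 1.02 normalized counts at 96 h and below the filter.

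Of 13 activin, inhibin and follistatin genes 8 were tested, 1 higher, the inhibin co-receptor *Tgfbr3* (3.88 ± 0.31), and 1 lower, the activin subunit *Inhbb* (-5.01 ± 0.35), with a median of -0.06. Of 12 parathyroid hormone signalling genes 8 were tested and 2 were higher, the receptor-modifying protein *Ramp2* (5.51 ± 0.28) and the adenylyl cyclase *Adcy6* (4.73 ± 0.30), with a median of 1.17. The ligand gene *Pthlh* was at 0.265 ± 0.531 at 96 h and *Pth* at 0. Of 14 retinol and retinoic acid genes 11 were tested, 3 higher and 4 lower (median -1.54). *Cyp26a1*, which degrades retinoic acid, was higher by 8.65 ± 0.26, and *Aldh1a1* (3.86 ± 0.49) and *Rdh10* (2.27 ± 0.15), which act in its synthesis, were higher too. *Crabp1* (-3.26 ± 0.35), *Aldh1a2* (-2.44 ± 0.50), *Aldh1a3* (-2.35 ± 0.36) and the receptor *Rarg* (-2.27 ± 0.25) were lower. Of 14 proteoglycan core proteins 13 were tested, 6 higher and 2 lower (median 1.26), with *Bgn* (6.49 ± 0.45) and *Gpc6* (3.63 ± 0.30) the furthest up and *Sdc2* (-3.48 ± 0.19) and *Col18a1* (-3.34 ± 0.26) down. Each of these counts stands beside a background of 9.28% called higher and 10.3% called lower. Some genes called higher passed the filter through later samples, so that their direction was largely fixed by it. They were *F2*, *Ramp2*, *Cyp26a1*, *Aldh1a1* and *Bgn*, with means of 7.28, 2.42, 0, 1.11 and 0.201 at 0 h.

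**Figure D5:**
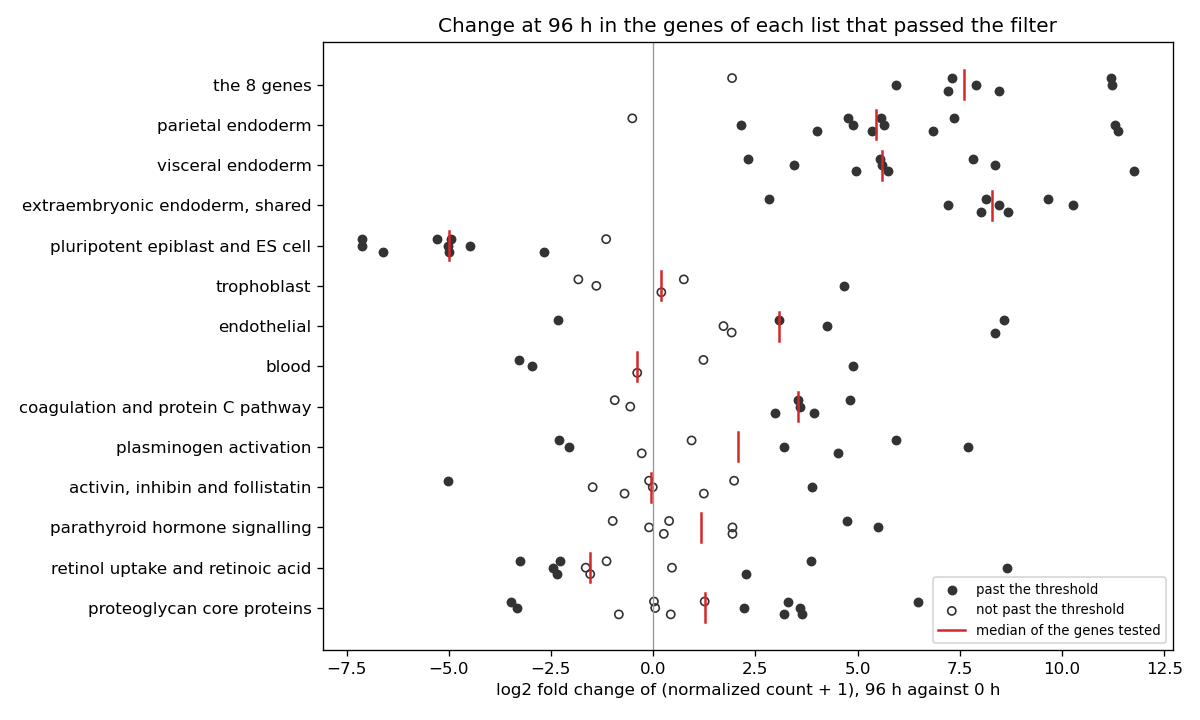
Log2 fold change of (normalized count + 1) at 96 h against 0 h for the 8 genes and for the genes of 13 lists that passed the filter, 1 point per gene. Filled points passed the threshold, open points did not, and the red bar is the median of the genes tested. The 8 genes have a median of 7.61, the parietal endoderm list 5.46, the visceral endoderm list 5.59 and the pluripotency list -5.01.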

How the data were processed

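RNA-seq was measured in 32 samples, grouped by time point from their titles, with the replicate number from the same title. Per the labels, libraries were made with a stranded poly(A) kit and sequenced as single reads, and the submitters' processing notes name FastQC 0.11.8, cutadapt 2.7, HISAT2 2.1.0 and featureCounts of Subread 1.6.4, with GRCm38.p6. The authors deposited 1 table of log2 values, counts per gene after the size factors and variance stabilizing transformation of DESeq2. The lowest deposited value, 1.58, stands for no reads and fixes the transformation. Its inversion gave normalized counts. Divided by the value of 1 read in the sample, 100% of these came out whole (tolerance 0.001). No column of other samples was used, since there was none. A level of 3 reads or fewer in a sample was taken as its floor, and counting intervals are exact at 95%.

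Genes with at least 10 normalized counts in at least 4 samples entered limma 3.58.1 on the log2(normalized count + 1) scale (lmFit, contrasts, eBayes with trend) in R 4.3.3 over all 32 samples, with Benjamini-Hochberg adjustment per comparison over the 15227 genes. This scale understates the change of genes with low counts. Tested on simulated data for 96 h against 0 h with 14529 genes, the procedure recovered 191 of 192 changed genes with 0 false calls. The simulated samples were independent, without sets of replicates, and the baseline of each gene was its mean over all samples. This result therefore does not give the rate of false calls in the real samples, or the recovery of genes near 0 at 0 h. Tables were handled in Python 3.11.15 with pandas 2.3.3, numpy 2.4.6 and scipy 1.17.1. Gene positions are from GENCODE M21 and upstream sequences from RefSeq, both on GRCm38.

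The 8 genes and the lists were chosen with earlier results of these data known. Named beside them are, of each list, the genes called at 96 h (at most 4 by size), *Gata6*, the transgene, *Nanog*, and the 3 profiles most like each gene. Additional list genes were named after their values were seen. Alternatives covered the pseudocount, filter, scaling, replicate block, replicate sets, samples in the fit, the deposited scale, limma-voom on the reads, thresholds and leaving out each sample. The other assays of the study were not analysed here.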

Additional observations from a re-analysis of the deposited data

Results flagged for a closer look

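In groups of 4 samples, a sample was singled out when its gap to the nearest of the others, as a share of the whole range, exceeded Dixon's 95% critical value. Of 64 groups of the 8 genes looked at, 6 held such a sample. The chance rate of about 1 in 20 holds for normally distributed values and not for a few reads, so no excess is read from this count. All 6 were at low counts. *Pth1r* at 0 h stood at 3.78 normalized counts in replicate 4 (2 reads), against 1.36 to 1.61 in the others. *Stra6* stood at 0.821 in replicate 4 at 2 h and at 0.802 in replicate 3 at 4 h (1 read each), with 0 in the others, and at 0 in replicate 4 at 8 h, with 0.778 to 0.893 in the others. *Procr* stood at 0.806 in replicate 3 at 0 h (1 read), against 3.78 to 4.14, and at 13.6 in replicate 2 at 2 h (18 reads), against 7.27 to 8.21. Without replicate 3 at 0 h the count of genes called higher at 4 h went from 2 to 1, since *Procr* fell to 1.76.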

How the results depend on the processing

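The replicate numbers are shared between time points. Same-numbered samples deviated together from the time point means with a mean correlation of 0.196 (lowest -0.043), which did not exceed that between the 2 numbers within a set (0.196), and 15 of 32 samples correlated best with their own number, so they were not treated as paired. With the replicate number as a replicate block the number of the 8 genes called higher was 7 at 96 h and 7 at 48 h against 0 h, and 8 at 96 h against 2 h, and neither this block nor the set as a block changed a count.

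Counts of the 8 genes called higher stayed within 1.5 times in 256 of 272 results of the other alternatives, and no gene with an adjusted p below 0.1 changed direction. The shares of all genes given above are for the main fit at 4-fold, so no count in this paragraph is read beside them. With a minimum change of 2-fold, 3 were called at 2 h against 0 h, 1 from 4 to 8 h, 7 from 24 to 48 h and 2 at 8 h against 2 h. With a pseudocount of 5, and likewise on the deposited values without inversion, 1 was called at 4 h and 3 at 16 h against 0 h, 1 from 8 to 16 h, and 0 at 8 h against 2 h. With a mean of at least 50 normalized counts, which removes *Procr*, 1 was called at 4 h. In replicates 1 and 2 alone 1 was called from 4 to 8 h and 1 from 8 to 16 h, and in replicates 3 and 4 alone 0 at 8 h against 2 h. The cause was not tested where a construction does not give it.

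Leaving out each sample gave 1 to 3 genes at 4 h (1 without replicate 3 at 0 h), 2 to 3 at 8 h, 4 to 5 at 16 h, 7 to 8 at 96 h (8 without replicate 1 or 2 at 0 h, when *Fst* passed), 5 to 6 from 48 to 96 h and 3 to 4 at 24 h against 2 h (4 without replicate 2 at 2 h or replicate 1 at 24 h, when *Procr* passed, at 2.12 and 2.03), and did not change the other counts. Depth limits the genes with few reads before induction, *Stra6*, *Pth1r*, *Procr*, *Thbd*, *Srgn* and *Plat*, whose folds against 0 h rest on 4 to 26 reads there.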
